A study of Mus musculus with 564 samples.

Results

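The genes followed here are Il6, Il12a, Il12b, Il23a, Il27 and Ebi3, which encode the interleukin 6 and interleukin 12 family cytokines of macrophages. Their loci were read through the cis-regulatory elements (CREs) of a mouse H3K27ac ChIP-seq table, and a CRE was a member when its centre lay within 25 kb of an mm10 RefSeq transcription start of 1 of the 6 genes. The rule found 39 of the 59190 CREs of the table, 4 at Il6, 5 at Il12a, 7 at Il12b, 5 at Il23a, 8 at Il27 and 10 at Ebi3. Within these loci the rule used position only.

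IL-6 is a secreted single-chain cytokine that signals through its receptor and the shared chain gp130, whereas the IL-12 family is built from pairs of chains. Il12a encodes p35 and Il12b encodes p40, which together form IL-12, a driver of type 1 helper T cells. Il23a encodes p19, which pairs with the same p40 to form IL-23, a cytokine that sustains type 17 helper T cells. Il27 encodes p28 and Ebi3 its partner chain, and together they form IL-27, which restrains and shapes T cell responses. Acetylation of histone H3 at lysine 27 (H3K27ac) marks active promoters and enhancers, and macrophages are known to switch on these genes when lipopolysaccharide (LPS), a component of bacterial cell walls, engages TLR4, but not when IL-4 drives them towards alternative activation.

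The cells were bone marrow-derived macrophages (BMDMs) of wild-type male mice of the C57/BL6 background aged 6 to 8 weeks, which were first exposed for 1 h to DMSO, the solvent, or to a clinical kinase inhibitor (CKI; 58 in all) and then received LPS or IL-4, each at 10 ng/mL, for 30 min, 1 h, 2 h or 4 h. Untreated (UT) cells had DMSO or a CKI but no stimulus, and the labels give their time as 0 h in the titles and as 4 h in the treatment field. The 564 libraries held 18 with DMSO, 2 for each of 9 groups, and 546 with a CKI, of which 474 groups had 1 library and 36 had 2. By stimulus, 249 libraries had LPS, 240 had IL-4 and 75 were untreated.

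The values are the authors' normalised read counts per CRE, here called normalised counts, and they summed to between 4066890 and 12391400 per library (5923680 to 6873670 with DMSO). Reads in CREs, estimated from the smallest steps between values in 16 of the 18 DMSO libraries, numbered 2345980 to 5406040. Replicate DMSO libraries correlated across all CREs with r between 0.960 and 0.982, but the labels do not say whether the 2 libraries of a group came from separate cultures or mice, so the p-values measure only the spread between these libraries, which may be technical. CREs lay over the start of 7 of 7 macrophage marker genes, with a summed mean value of 6816 normalised counts, and over the start of none of the neutrophil, T cell, B cell and mast cell or basophil markers. Flt3, Klrb1c and Pdgfrb were the only markers of dendritic cells, NK cells and fibroblasts with a CRE at the start, at mean values of 31.8, 33.8 and 39.8. Some markers were called by the limma F-tests used for the members. The group mean of Pdgfrb went from 6.5 in untreated cells to 105.5 at 2 h of LPS, a log2 difference of 3.30. Flt3 rose after IL-4 by 1.51 on the log2 scale. Of the 4 macrophage markers with a CRE centred within 1 kb of the start, Itgam and Mertk fell after LPS, Itgam by 2.21 on the log2 scale. The part of other cells in the results was not tested.

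The sequences at the centre of the results are those of 3 promoters and of the 3 distal CREs that moved most at Il12a, Il12b and Ebi3. The promoters are shown as the 250 bases before the start, from RefSeq on GRCm38.p6 (the mm10 assembly), all on the plus strand: Il6 at chr5:30012864-30013113, Il12b at chr11:44399813-44400062 and Ebi3 at chr17:55952373-55952622. Capitals mark matches, on either strand, to the AP-1 motif TGANTCA, to the C/EBP motif TTNNGNAA, to the short core GAGGAA bound by PU.1, to the TATA box TATAAA, to the IRF motif (the letters GAAA in 2 copies with 2 bases between them) or to the NF-kB consensus, and a match is a run of letters, not a shown binding site.
Il6 promoter: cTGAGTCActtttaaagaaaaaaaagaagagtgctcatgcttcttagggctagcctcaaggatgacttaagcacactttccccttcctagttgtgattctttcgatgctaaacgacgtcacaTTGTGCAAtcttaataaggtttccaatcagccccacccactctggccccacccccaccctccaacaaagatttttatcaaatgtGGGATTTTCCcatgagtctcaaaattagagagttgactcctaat
Il12b promoter: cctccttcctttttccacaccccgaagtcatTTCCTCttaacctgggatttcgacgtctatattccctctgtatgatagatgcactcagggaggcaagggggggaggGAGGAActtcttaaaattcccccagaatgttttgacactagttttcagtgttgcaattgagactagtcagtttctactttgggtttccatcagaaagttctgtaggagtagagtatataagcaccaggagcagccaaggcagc
Ebi3 promoter: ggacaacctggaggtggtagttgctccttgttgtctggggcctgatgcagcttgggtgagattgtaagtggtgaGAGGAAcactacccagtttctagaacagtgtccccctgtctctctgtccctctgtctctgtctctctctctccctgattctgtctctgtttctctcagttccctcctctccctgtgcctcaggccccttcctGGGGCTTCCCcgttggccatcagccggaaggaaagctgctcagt

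In these windows the Il6 promoter held an NF-kB match that began 44 bases upstream of the start, a C/EBP match at 128 bases and an AP-1 match at 249 bases. The Ebi3 promoter held an NF-kB match at the same distance of 44 bases and a PU.1 match at 176 bases, and the Il12b promoter held PU.1 matches at 219 bases (minus strand) and 143 bases. Entries were matched for 4 of the 6 genes (5 promoters in all, 2 of them at Il12a, neither with a match). Of all 32851 promoters of the same length, 3.9% held the NF-kB match, 6.75% AP-1, 36.8% C/EBP, 23.3% PU.1, 2.98% IRF and 12.4% TATA.

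The distal CREs are shown as their central 300 bases, read from the plus strand of GRCm38.p6: the CRE 17.5 kb downstream of the Il12a start at chr3:68708807-68709106, the CRE 9.8 kb upstream of the Il12b start at chr11:44390121-44390420 and the CRE 8.9 kb downstream of the Ebi3 start at chr17:55961358-55961657. Capitals have the same meaning, and overlapping matches run together.
Il12a downstream CRE: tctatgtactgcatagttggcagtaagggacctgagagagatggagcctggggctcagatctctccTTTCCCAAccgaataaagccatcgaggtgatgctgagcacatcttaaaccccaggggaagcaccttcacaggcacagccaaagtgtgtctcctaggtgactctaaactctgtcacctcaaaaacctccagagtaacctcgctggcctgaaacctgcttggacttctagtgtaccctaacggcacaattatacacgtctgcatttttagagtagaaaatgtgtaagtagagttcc
Il12b upstream CRE: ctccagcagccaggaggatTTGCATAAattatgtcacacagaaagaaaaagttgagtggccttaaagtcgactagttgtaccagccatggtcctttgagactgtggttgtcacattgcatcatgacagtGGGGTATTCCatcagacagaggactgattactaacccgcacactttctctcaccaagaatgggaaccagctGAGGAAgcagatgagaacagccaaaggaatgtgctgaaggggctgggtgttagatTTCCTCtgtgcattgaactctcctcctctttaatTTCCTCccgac
Ebi3 downstream CRE: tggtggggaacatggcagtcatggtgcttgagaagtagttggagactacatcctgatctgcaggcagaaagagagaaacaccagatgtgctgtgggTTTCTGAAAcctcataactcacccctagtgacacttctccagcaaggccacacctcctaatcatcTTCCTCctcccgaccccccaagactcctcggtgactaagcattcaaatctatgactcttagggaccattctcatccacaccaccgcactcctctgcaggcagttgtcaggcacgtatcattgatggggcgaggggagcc

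The Il12b CRE held 1 NF-kB match, 1 C/EBP match and 3 PU.1 matches, the Il12a CRE 1 C/EBP match, and the Ebi3 CRE 2 overlapping C/EBP matches and 1 PU.1 match. Over the central 300 bases of every member, 4 of 39 held an NF-kB match, against 5.98% of all 59190 CREs, and 17 held a PU.1 match, against 41.2%. C/EBP matches stood in 17 of 39 (50.1% of all CREs), AP-1 in 7 (20.2%), IRF in 2 (5.14%) and TATA in 5 (13.3%).

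LPS raised H3K27ac at each of the 6 loci in DMSO cells. Of the 39 members, 26 rose, 3 fell, 8 were tested and not called and 2 fell below the filter of a mean of 10 normalised counts, where a call needed an adjusted p under 0.01 and a log2 difference over 1 at any time (limma F-test over the 4 times, Benjamini-Hochberg over all CREs). Over all 50697 CREs tested the same rule called 53.5%, 29.0% upwards and 24.6% downwards. The CREs that rose were 2 at Il6, 4 at Il12a, 4 at Il12b, 1 at Il23a, 7 at Il27 and 8 at Ebi3, and the 3 that fell lay within and past the Il12b gene. The median of the largest log2 difference was 2.83 over the 37 members tested and 0.37 over all CREs tested. Because the filter used the libraries of this comparison, some of these members passed it only through their LPS values. Every log2 difference here is on the log2(normalised count + 5) scale, which understates the change of low CREs.

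**Figure D1:**
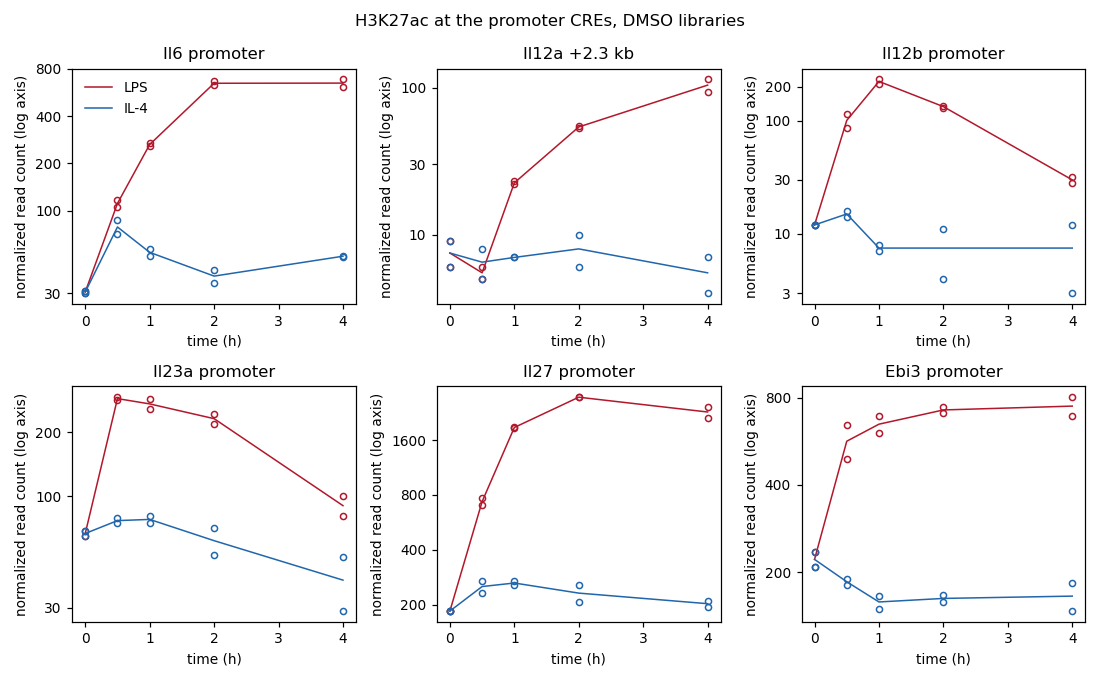
Normalised counts (log axis) in each DMSO library at the promoter CRE of the 6 genes, before stimulation and at 30 min, 1 h, 2 h and 4 h of LPS (red) or IL-4 (blue), with 2 points per group and lines through the group means. Il6 climbs to 648.5 at 4 h of LPS and Il27 to above 2700 at 2 h, whereas Il12b peaks at 1 h and Il23a at 30 min before both fall.

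At Il6, the promoter CRE (chr5:30012104-30015562, over the start and an exon of the gene) held 30 and 31 normalised counts in untreated cells, and LPS took it to 117 and 106 at 30 min, 271 and 257 at 1 h, 628 and 666 at 2 h, and 686 and 611 at 4 h. Neither replicate overlapped the untreated libraries at any time, and the 2 h and 4 h libraries overlapped each other. The rise was 4.20 ± 0.152 (SE) on the log2 scale at 4 h, n = 2 libraries per group, with an adjusted p of 6.33e-23 (limma F-test, Benjamini-Hochberg). The intergenic CRE 19.3 kb upstream held 33 and 19 counts before and 205 and 163 after 4 h, a rise of 2.64 ± 0.247 (limma adjusted p = 1.39e-10). Of the other CREs, the one 23.1 kb downstream was not called, with log2 differences between -0.57 and 0.04, and the one 7.7 kb downstream, over an exon, was below the filter.

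At Il12b, the gene of the p40 chain, 4 CREs rose early and fell back within the sampled times. The promoter CRE (chr11:44398328-44400777) held 12 and 12 counts in untreated cells, 86 and 115 at 30 min, 232 and 212 at 1 h, 136 and 130 at 2 h, and 32 and 28 at 4 h of LPS. The libraries of each LPS time stood apart from those of every other time and from the untreated ones. Its rise at 1 h was 3.74 ± 0.232 on the log2 scale (limma adjusted p = 4.2e-16), and 1.04 of it was left at 4 h. The CRE 9.8 kb upstream (chr11:44389230-44391312, intergenic), whose sequence is given above, went from 10 and 5 counts to 271 and 272 at 1 h and 25 and 25 at 4 h, a rise of 4.50 ± 0.244 (limma adjusted p = 1.55e-17).

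The CREs 21.9 kb and 18.3 kb upstream of Il12b were as quick. The first rose from 23 in both untreated libraries to 302 and 303 at 30 min and 318 and 343 at 1 h, and was back at 19 and 33 by 4 h, values that overlap the untreated ones. The second held 24 and 27 counts before, 429 and 403 at 1 h and 30 in both libraries at 4 h. All 4 CREs retained between 7.21% and 13.5% of their highest mean at 4 h. The CREs 10.6 kb, 15.2 kb and 17.5 kb downstream, the first 2 over exons of the gene, were below untreated cells at 4 h. They had fallen by 1.26, 1.31 and 1.14 on the log2 scale, the middle one from 169 and 170 to 83 and 51 counts. The CRE 10.6 kb downstream had a mean of 22.5 counts untreated and 48.0 at 1 h. This difference of 0.92 on the log2 scale (limma adjusted p = 0.0269) was under the size a call needs. Its step from 30 min to 1 h was 1.11 (limma adjusted p = 0.0169). With a pseudocount of 20 it and the CRE 17.5 kb downstream were at -0.68 and -0.78 at 4 h, neither called. Without replicate 2 at 4 h the CRE 15.2 kb downstream was at -0.99, just under the size a call needs. The call 17.5 kb downstream was lost when any of 5 single libraries was left out (both untreated, both 4 h, and replicate 1 at 2 h; limma adjusted p from 0.0128 to 0.0466).

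At Il12a, the gene of the p35 chain, no CRE overlapped a curated start, and the nearest was centred 2.3 kb downstream of it (chr3:68692803-68694598, over an exon of the gene), 40 bases from a predicted start. This CRE was slow: it held 6 and 9 counts in untreated cells and 5 and 6 at 30 min of LPS, then 22 and 23 at 1 h, 55 and 53 at 2 h and 114 and 94 at 4 h. The untreated and 30 min libraries overlapped, and every later time stood above the one before. The rise at 4 h was 3.13 ± 0.319 (limma adjusted p = 9.66e-12). The intergenic CRE 17.5 kb downstream (chr3:68707608-68710307) had already gone from 12 and 9 to 71 and 60 counts at 30 min, and stood at 227 and 231 at 2 h and 232 and 219 at 4 h, a rise of 3.92 ± 0.217 at 2 h (limma adjusted p = 1.31e-17). The CREs 22.4 kb downstream and 24.8 kb upstream rose by at most 2.90 and 1.34, the second a call that was lost when any of 6 single libraries was left out (both untreated, both 2 h, and replicate 2 at 30 min and at 4 h; limma adjusted p from 0.0106 to 0.0315), and the one 14.3 kb upstream was not called.

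At Il23a, the gene of the p19 chain of IL-23, 1 of 5 CREs rose. The promoter CRE (chr10:128297517-128300835, which also overlaps the small RNA gene Gm23241) held 69 and 65 counts in untreated cells, 292 and 283 at 30 min, 287 and 256 at 1 h, 244 and 219 at 2 h, and 81 and 100 at 4 h of LPS. The first 2 LPS times overlapped each other, and the 4 h libraries lay above the untreated ones by a margin that did not reach the threshold (0.40 on the log2 scale). The rise at 30 min was 2.02 ± 0.170 (limma adjusted p = 4.51e-14). The neighbouring CREs belong in part to other genes: the CRE 5.4 kb upstream, over the start of Pan2, reached 0.98, the one 24.4 kb upstream lies over the start of Cnpy2 and was not called, and the one 22.9 kb downstream, in an intron of Stat2, reached 1.55 with an adjusted p of 0.0106 (limma, Benjamini-Hochberg). The last, 13.8 kb downstream over an exon of Stat2, was below the filter.

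Il27, the gene of the p28 chain, had the CRE with the highest values. Its promoter CRE (chr7:126593072-126600415, 7344 bases wide and over exons of the gene) held 185 counts in both untreated libraries, 703 and 769 at 30 min, 1890 and 1860 at 1 h, 2746 and 2749 at 2 h, and 2439 and 2120 at 4 h of LPS. The libraries of each time stood apart from those of every other. The rise at 2 h was 3.86 ± 0.0892 (limma adjusted p = 1.25e-27), and 83.0% of the highest mean was held at 4 h. Another 6 CREs rose with it, by at most 3.74 (8.9 kb upstream), 3.10 (20.2 kb downstream, over an exon of Cln3), 2.97 (17.9 kb upstream), 2.95 (12.0 kb upstream), 2.95 (3.5 kb downstream) and 2.18 (21.9 kb upstream). The remaining CRE, 9.8 kb downstream over the starts of Apobr and Cln3, moved by 0.68 and was not called.

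Ebi3, the gene of the chain that p28 pairs with, was already marked in untreated cells. Its promoter CRE (chr17:55951369-55953500) held 235 and 208 counts before LPS, 490 and 642 at 30 min, 602 and 694 at 1 h, 709 and 742 at 2 h, and 803 and 693 at 4 h. All LPS libraries lay above the untreated ones, and each LPS time overlapped the next except 1 h and 2 h. The rise at 4 h was 1.73 ± 0.125 (limma adjusted p = 1.59e-14). The CRE 8.9 kb downstream (chr17:55960648-55962368, over an exon of Yju2) had the largest log2 difference of the 39, 4.54 ± 0.193 at 2 h (limma adjusted p = 6.17e-21). It went from 12 and 27 counts to 162 and 202 at 30 min, 431 and 461 at 1 h, 504 and 574 at 2 h, and 501 and 428 at 4 h.

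The other Ebi3 CREs that rose lay 2.9 kb upstream (3.55, near the start of Zfp119b), 4.7 kb, 6.7 kb, 10.7 kb and 12.6 kb downstream (2.95, 2.27, 2.85 and 2.83, the second over the start of Yju2) and 21.2 kb upstream (1.92). Those 7.4 kb upstream, at another start of Zfp119b, and 23.9 kb downstream were not called. Since CREs were given to the gene with the nearest start among the 6, CREs at the starts of Pan2, Cnpy2, Apobr, Cln3, Zfp119b and Yju2 are members by distance only, and which gene each one serves was not measured.

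**Figure D2:**
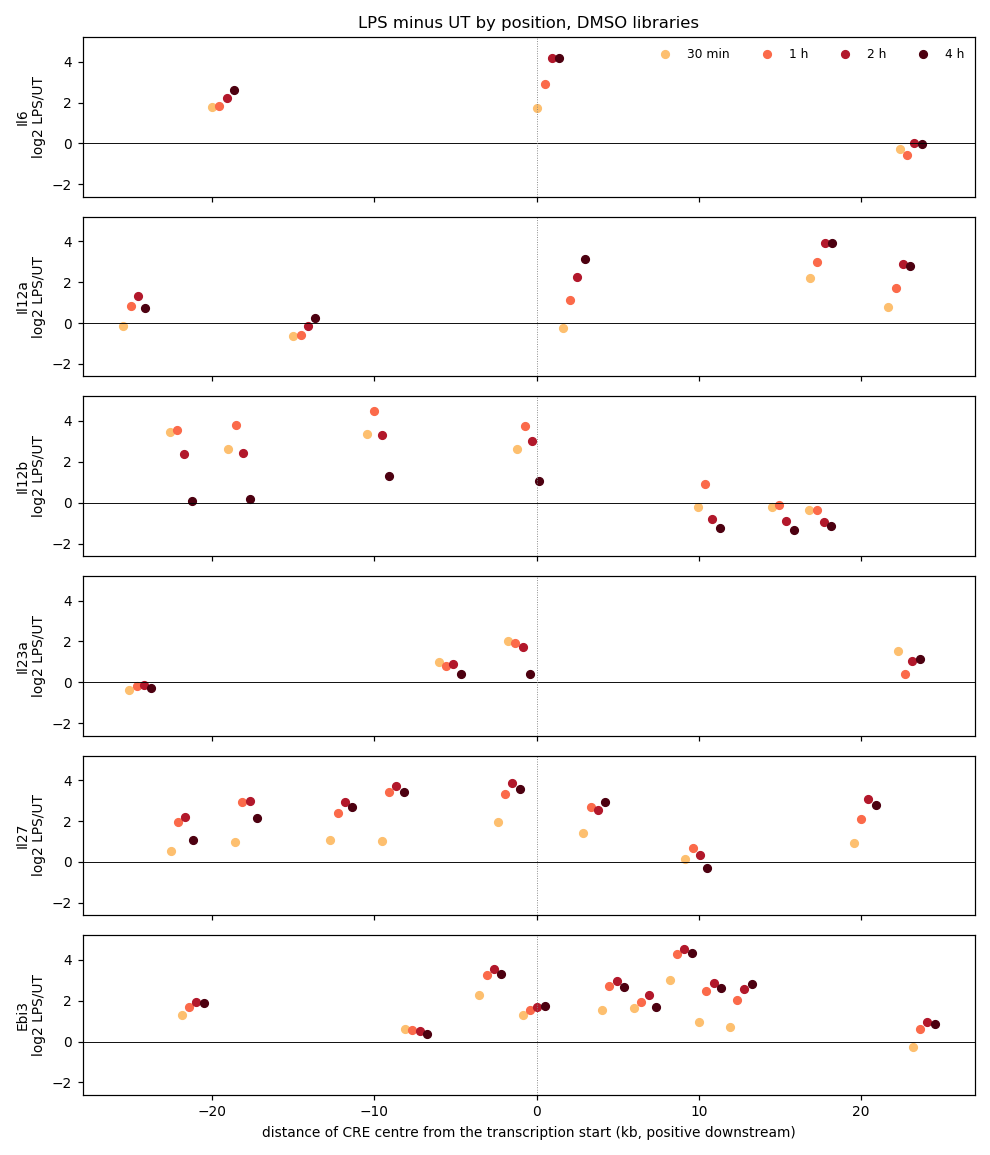
Log2 difference from untreated cells (y axis) of each tested member at its distance from the gene start in kb (x axis), 1 panel per gene, with the 4 LPS times as colours, set slightly apart sideways around the CRE centre, and 2 DMSO libraries per group. At Il12b the upstream CREs and the promoter lie near 4 at 1 h and near 0 to 1 at 4 h, while the downstream ones lie below 0 at 4 h; at Il27 and Ebi3 most CREs on both sides of the start stay high at 4 h.

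The loci differed in when they were highest. Among the 26 CREs that rose, the highest LPS mean fell at 30 min for 1 (the Il23a promoter), at 1 h for 4, which were all at Il12b, at 2 h for 15 (3 at Il12a, 6 at Il27 and 6 at Ebi3), and at 4 h for 6, among them both Il6 CREs, the CRE 2.3 kb downstream of the Il12a start and the Ebi3 promoter. Tested step by step (limma, adjusted p under 0.05 and a log2 difference over 0.5), 24 members rose and 0 fell in the first 30 min, when 25.9% of CREs tested rose and 23.2% fell. Between 30 min and 1 h 20 rose and 1 fell (14.5% and 11.0% of all). From 1 h to 2 h 7 rose and 6 fell, and the 6 that fell were all at Il12b (11.5% and 13.7%). From 2 h to 4 h 0 rose and 8 fell (9.57% and 5.09%), which were 4 Il12b CREs, the Il23a promoter, the CRE 5.4 kb upstream of Il23a, the CRE 6.7 kb downstream of Ebi3 and the CRE 9.8 kb downstream of Il27.

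In that last step the Il12b promoter fell by 1.98 ± 0.232 (limma adjusted p = 1.45e-07) and the Il23a promoter by 1.31 ± 0.170 (limma adjusted p = 8.01e-07) on the log2 scale. The Il6 promoter had risen at each of the first 3 steps, by 1.71, 1.21 and 1.28, and stood still in the last (log2 difference 0.00 ± 0.152). The Il27 promoter rose by 1.96, 1.34 and 0.55 and then changed by -0.27 ± 0.0892, which is under the size the rule asks for. The CRE 2.3 kb downstream of the Il12a start gained 0.88 ± 0.319 in the last step, with an adjusted p of 0.0541 by limma.

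Per kilobase of CRE, used here to set levels of different genes side by side, the order in untreated cells was Ebi3 (104 normalised counts per kb), Il27 (25.2), Il23a (20.2), Il6 (8.82), Il12b (4.90) and Il12a (4.18), and the last 2 overlapped between libraries. At the highest LPS time it was Il27 (374), Ebi3 (351), Il6 (187), Il12b (90.6), Il23a (86.6) and Il12a (57.9). Here Il27 and Ebi3 overlapped, as did Il12b and Il23a, whereas Il6 lay below the first pair and above the second in each library. The study's methods describe counting in windows of fixed size, while the CREs of the table vary in width. If the counts come from fixed windows, the division by width does not apply, and the highest mean counts, 2748 at Il27 and 748 at Ebi3, would stand as they are.

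IL-4 called a smaller count of these CREs than LPS, at a share of those tested close to that of all CREs. The filter used the libraries of each comparison, so a member low without LPS could be tested after LPS (37 tested) and not after IL-4. The counts are thus not over the same CREs. With IL-4 in DMSO cells 27 of the 39 passed the filter and 7 were called, 3 upwards and 4 downwards. Of all 47018 CREs tested 24.7% were called (13.6% upwards and 11.0% downwards). The median of the largest log2 difference was 0.36 over the members tested and 0.21 over all CREs tested. None of the Il23a, Il27 and Ebi3 CREs was called by the limma F-test; the Il27 promoter reached 0.50 at 1 h, the Ebi3 promoter -0.47 at 1 h and the Il23a promoter -0.71 at 4 h.

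The 3 that rose lay at Il6 and Il12a. The CRE 19.3 kb upstream of Il6 went from 33 and 19 counts to 114 and 136 at 30 min of IL-4 and still held 125 and 124 at 4 h, without overlap with the untreated libraries, a rise of 2.10 ± 0.207 (limma adjusted p = 2.04e-12). The Il6 promoter went from 30 and 31 to 87 and 71 at 30 min, 52 and 57 at 1 h, 35 and 42 at 2 h, and 51 and 52 at 4 h, a rise of 1.24 ± 0.243 at 30 min (limma adjusted p = 0.00031). The intergenic CRE 24.8 kb upstream of Il12a rose from 8 and 10 to 42 and 52 at 30 min and 44 and 42 at 2 h, and was at 10 and 18 at 4 h (largest log2 difference 1.89, limma adjusted p = 1.53e-07).

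The 4 that fell were Il12b CREs, and each was lowest at 4 h. The CRE 15.2 kb downstream went from 169 and 170 to 47 and 65 counts (-1.53, limma adjusted p = 6.83e-09) and the one 17.5 kb downstream from 47 and 40 to 13 and 7 (-1.72, limma adjusted p = 0.000508). The CREs 21.9 kb and 18.3 kb upstream, which LPS raised, went from 23 and 23 to 5 and 4 (-1.56, adjusted p = 0.00482 by limma) and from 24 and 27 to 12 and 4 (-1.30, adjusted p = 0.00528 by limma). These last values are near what a few reads are worth, and both calls were lost when any single untreated library was left out (limma adjusted p from 0.0182 to 0.0424), the first also without either 4 h library and the second without replicate 1 at 30 min or 2 h or replicate 2 at 4 h. The call 17.5 kb downstream was lost without untreated replicate 1 (limma adjusted p = 0.0255). The Il12b promoter and the CRE 9.8 kb upstream, at 3 and 12 and at 5 and 4 counts after 4 h of IL-4, were below the filter in this comparison.

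**Figure D3:**
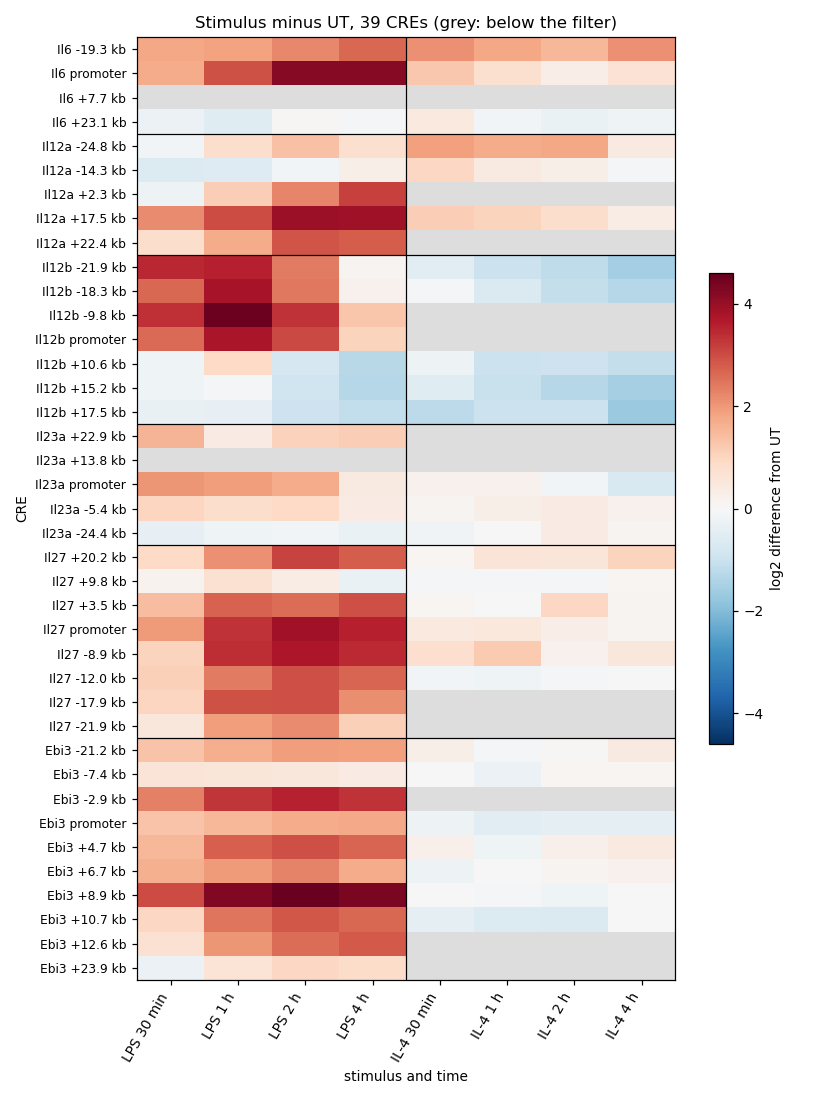
Log2 difference from untreated DMSO cells (colour) of the 39 members (rows, grouped by gene) at each time of LPS and of IL-4 (columns), with grey for CREs below the filter. The Il12b rows are brightest at 30 min and 1 h of LPS, the Il27 and Ebi3 rows from 1 h to 4 h, and under IL-4 the CRE 19.3 kb upstream of Il6 is raised at all 4 times.

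Set directly against each other at the same time, LPS and IL-4 differed at 27 of 39 members, of which 36 passed the filter; 25 were higher with LPS and 2 with IL-4 (58.4% of 50587 CREs tested were called, 29.2% in each direction). The Il6 promoter was higher with LPS by 3.91 ± 0.179 at 2 h (limma adjusted p = 6.37e-22). In contrast, the CRE 19.3 kb upstream of Il6 was not called, its largest difference being 0.69 at 2 h. The other promoter CREs were all higher with LPS, by 4.18 at Il12b (1 h), 1.84 at Il23a (30 min), 3.55 at Il27 (2 h) and 2.15 at Ebi3 (4 h), as was the CRE 2.3 kb downstream of the Il12a start, by 3.38 at 4 h. The 2 that were higher with IL-4 were the CREs 24.8 kb and 14.3 kb upstream of Il12a, with LPS minus IL-4 at -2.03 and -1.57 on the log2 scale at 30 min, the second with 59 and 78 counts after IL-4 and 20 and 19 after LPS.

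Over the 9 DMSO group means, the promoters that followed those of the 6 genes most closely were picked by Pearson's r among 11136 promoter CREs, as a description without a test, since groups share their untreated libraries and many CREs respond to LPS. Closest to Il6 were the CRE shared by Bicdl2 and Mmp25 (0.995) and that of Gm4606 (0.993). Closest to Il12a was Npepps (0.983), to Il12b Slco5a1 (0.990) and Mmp9 (0.988), the gene of a matrix metalloproteinase, to Il23a Pvr (0.982), to Il27 Chd6 (0.997) and to Ebi3 Bcl2a1c (0.992), with Traf1, a TNF receptor adaptor, at 0.990. Among the 6 genes themselves, r was 0.953 between Il12b and Il23a, which encode the chains of IL-23, and 0.954 between Il27 and Ebi3, which encode the chains of IL-27. It was 0.459 between Il12a and Il12b, the chains of IL-12, and 0.969 between Il6 and Il27.

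The rest of the pathway was read at 1 promoter CRE per gene. Of the other IL-6 family cytokines 4 of 7 had such a CRE, and all 4 rose after LPS, Lif by 2.96, Clcf1 by 2.25, Ctf1 by 2.10 and Osm by 1.00 on the log2 scale, and 0 were called after IL-4. Of the receptor chains 7 of 9 had one, and 0 rose and 3 fell after LPS, namely Il6ra (-1.83), Il12rb1 (-1.68) and Lifr (-2.82), while Il27ra rose after IL-4 (1.39). Among the kinases and SOCS inhibitors downstream of the receptors, Jak2 rose after LPS by 2.73, Tyk2 by 1.56, Socs1 by 2.45 and Socs3 by 2.37, the last pair feedback inhibitors of JAK signalling. After IL-4 Jak2 rose by 1.22, Socs1 by 2.25 and Socs3 by 1.07. Of transcription factors known to act on these cytokine genes 9 of 12 had a CRE, and 5 rose after LPS, Rel by 1.48, Nfkb1 by 1.84, Nfkbiz by 1.70, Irf1 by 1.72 and Atf3 by 1.03, and 1 after IL-4, Nfkb1 by 1.33. These calls used the same limma F-tests as for the members, under which 29.0% of all CREs rose and 24.6% fell after LPS and 13.6% rose and 11.0% fell after IL-4.

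The CKI libraries gave the same measure in other samples, with no DMSO library in the fit and the response averaged over the 58 compounds. After LPS 25 of the 39 members rose and 0 fell, against 15.4% of CREs upwards and 13.5% downwards (28.9% of 59163 called), and after IL-4 1 rose and 0 fell, against 5.33% and 3.5% (8.84% called). That 1 was the CRE 19.3 kb upstream of Il6, by 1.36 at 4 h. The Il6 promoter rose by 1.06, 1.81, 2.52 and 2.60 on the log2 scale at 30 min, 1 h, 2 h and 4 h of LPS and the Il27 promoter by 1.38, 2.33, 2.68 and 2.65. The Il12b promoter rose by 1.55, 2.17, 1.54 and 0.61 and the Il23a promoter by 1.63, 1.53, 0.67 and 0.58, so that both were again highest by 1 h. The Ebi3 promoter rose by 1.07, 1.20, 1.38 and 1.39, and the CRE 2.3 kb downstream of the Il12a start by 0.36, 0.85, 1.50 and 2.00.

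Single libraries spread widely around these means. At the Il6 promoter the 73 untreated CKI libraries ran from 29 to 152 normalised counts (median 62) and the 57 at 4 h of LPS from 155 to 677 (median 417), so that the lowest stimulated library lay above the highest untreated one. The Il27 promoter ran from 162 to 473 (median 275) untreated and from 1038 to 3204 (median 1867) at 2 h, again apart. At the Il12b promoter the untreated libraries ran from 5 to 118 (median 40) and those at 1 h of LPS from 97 to 286 (median 212), which overlap. The Il23a promoter ran from 47 to 166 untreated (median 95) and from 189 to 436 at 30 min (median 300). The Ebi3 promoter ran from 112 to 281 untreated (median 208) and from 322 to 873 at 4 h (median 581). Neither of these overlapped. The CRE 2.3 kb downstream of the Il12a start ran from 4 to 90 (median 21) untreated and from 25 to 170 (median 110) at 4 h.

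Set against its own untreated library, a compound's LPS value was higher for most compounds at each promoter. The Il27 promoter was higher in 57 of 58 compounds at 30 min, 57 of 57 at 1 h, 55 of 55 at 2 h and 55 of 55 at 4 h, and the Il6 promoter in 55 of 58, 57 of 57, 55 of 55 and 55 of 55. The Il12b promoter was higher in 57 of 58, 57 of 57, 53 of 55 and 42 of 55, and the Il23a promoter in 58 of 58, 57 of 57, 49 of 55 and 51 of 55. The CRE 2.3 kb downstream of the Il12a start was higher in 34 of 58, 46 of 57, 55 of 55 and 53 of 55, and the Ebi3 promoter in 56 of 58, 57 of 57, 55 of 55 and 55 of 55. After IL-4 the CRE 19.3 kb upstream of Il6 was higher in 55 of 58, 58 of 58, 52 of 56 and 54 of 55 compounds.

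**Figure D4:**
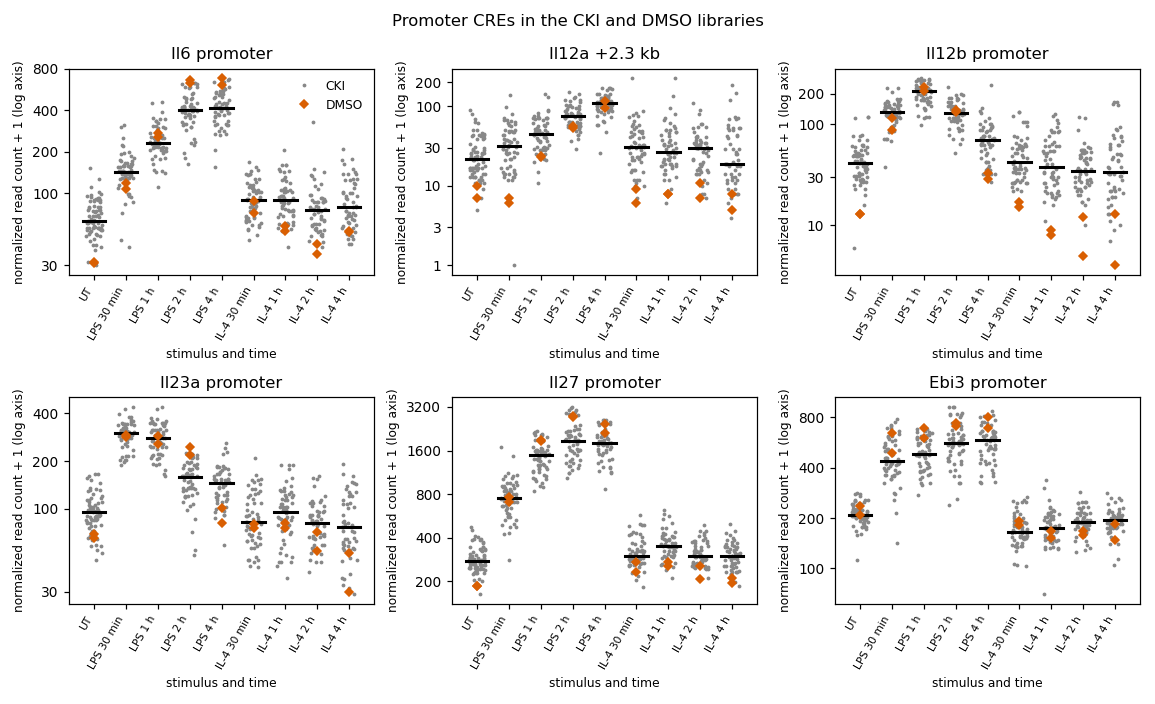
Normalised counts plus 1 (log axis) at the promoter CRE of each gene in every library, by stimulus and time, with CKI libraries as grey dots, their median as a black line and the 2 DMSO libraries as orange diamonds. The DMSO libraries lie low among the CKI libraries in untreated cells at Il6, Il12a and Il12b and among the higher ones at the LPS peak of Il6 and Il27.

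CKI and DMSO libraries also differed as libraries. Their contrast, which divides the median of the highest 10% of the CREs by that of the lowest 10%, ran from 53.0 to 134 (median 75.1) in the 18 DMSO libraries and from 3.34 to 67.2 (median 17.6) in the 546 CKI libraries. Over untreated and LPS libraries all 58 compounds had a lower median contrast than DMSO (6.47 to 40.0 against 67.95). Every comparison of a compound with DMSO also shares the same DMSO libraries. The contrast is therefore given beside these comparisons, and its part in them was not tested.

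Against DMSO, averaged over untreated and LPS libraries, the 39 members and 58 compounds made 2262 pairs, of which 465 (20.6%) were higher and 110 (4.86%) lower (limma, adjusted p under 0.05 and a log2 difference over 0.5). Over all CREs 32.3% of pairs were higher and 4.04% lower (36.4% called). With stimulated libraries only, 268 of the member pairs were higher and 188 lower, and the shares over all CREs in that setting are not given here. The members were split by their mean in the DMSO libraries, which are also the reference of the difference. Such a split can by itself make low members lean higher and high members lower, and its part here was not tested. Of the 13 with a DMSO mean under 50 normalised counts 48.9% of pairs were higher and 0.0% lower, of the 15 between 50 and 200 11.0% and 1.49%, and of the 11 at 200 or more 0.0% and 15.2%. Shares for all CREs at the same levels were not computed. By promoter, 32 compounds were higher at the CRE 2.3 kb downstream of the Il12a start and 22 at Il12b, and 0 were lower at either. At the Il23a promoter log2 differences ran from -0.27 to 0.50, and 0 compounds were called; the highest, Losmapimod, had an adjusted p of 0.0192 by limma and fell just short of the size that a call needs. At Il6 2 were lower, AZD2014 (-0.69, limma adjusted p = 0.004) and Afatinib (-0.51, limma adjusted p = 0.0111), at Il27 8 were lower, with Omipalisib lowest (-0.66), and at Ebi3 15 were lower, with PH797804 lowest (-0.96). Afatinib was not called without DMSO replicate 1 (-0.48) or without its second libraries (-0.25), and with quantile normalisation none of these 4 was called (-0.37, -0.28, -0.19 and -0.36).

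Compounds designated against kinases of the TLR4 and cytokine receptor routes were not tested as classes against the other compounds. Differences named here as after LPS average untreated and LPS libraries together, so they are not the response to LPS alone. At the Il12b promoter Losmapimod, a p38 inhibitor, was highest of all 58 compounds (1.18). Calls of a higher value there went to 3 p38, 3 JAK, 1 MEK, 1 ERK and 1 JNK inhibitor. At the CRE 2.3 kb downstream of the Il12a start they went to 3 JAK, 1 p38, 1 ERK, 1 IKK2 and 1 JNK inhibitor. Against the other compounds of its run, 0 of these compounds were called at the Il12b promoter. Against DMSO, 2 of all 58 compounds were called lower after LPS at the Il6 promoter. At the Il12b and Il23a promoters and the CRE 2.3 kb downstream of the Il12a start, 0 of all 58 were. None of the 4 p38, 3 MEK, 2 ERK, 1 IKK2, 1 JNK and 6 JAK inhibitors was called lower after LPS at the Il6, Il12b and Il23a promoters or the CRE 2.3 kb downstream of the Il12a start. At the Il6 promoter their log2 differences from DMSO ran from -0.48 to -0.02 for the JAK inhibitors, from 0.12 to 0.27 for MEK and from -0.30 to 0.49 for p38. At the Il23a promoter they ran from -0.27 to -0.19 for MEK and from 0.09 to 0.31 for ERK. Lower calls fell at the Il27 promoter for 1 p38 inhibitor, PH797804, and at the Ebi3 promoter for the same compound, for the IKK2 inhibitor IMD0354 (-0.51, but -0.48 and not called without replicate 2 of DMSO) and for 1 JAK inhibitor. Most compounds had 1 library per time, and the standard error of such a difference at the Il6 promoter was 0.215 where no time was repeated.

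The columns of the table fall into 6 consecutive runs of 8 to 10 compounds, which differ in contrast and depth, and each compound was therefore also set against the other compounds of its run. Untreated and LPS libraries were again averaged. In this comparison 19 of the 2262 pairs were called, 5 higher (0.221%) and 14 lower (0.619%), against 0.742% and 0.406% of pairs over all CREs (1.15% called). PH797804, a p38 inhibitor, made 18 of the 19, and AZD8186 the other, at the CRE 10.6 kb downstream of the Il12b start (-1.17, limma adjusted p = 0.0121). The share of all CREs called for PH797804 alone is not given here, in this or the other settings below. Whether its counts are particular to these loci was not tested.

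The promoters of both IL-27 chains were among the PH797804 calls. Its Il27 promoter held 344 counts in the untreated library and 282, 1493, 1368 and 871 at 30 min, 1 h, 2 h and 4 h of LPS, and was lower than in the other compounds of the run (log2 difference -0.77 ± 0.144, limma adjusted p = 5.99e-06). Its Ebi3 promoter held 187 counts in the untreated library and 141, 353, 435 and 373 with LPS (-0.93 ± 0.137, limma adjusted p = 6.6e-09). The Il6 promoter, at -0.43, was not called. With stimulated libraries only it was called (-0.78, limma adjusted p = 0.00021), and the Il27 and Ebi3 promoters were at -1.07 and -1.13, both called. The libraries of this compound stand apart: their median contrast was 6.88 against 35.8 for the others of the run, and its 30 min LPS library had the lowest total of all 564, with 1 read worth about 23.5 normalised counts.

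Without that library 17 members were called for PH797804, 11 higher and 6 lower where 5 were higher and 13 lower before. The Ebi3 promoter was then at -0.68 (limma adjusted p = 9.83e-05) and the Il27 promoter at -0.54 (limma adjusted p = 0.00235), while the CRE 17.5 kb downstream of Il12a went from -0.56 to 0.36 and the CRE 8.9 kb downstream of Ebi3 from -0.65 to -0.48, both no longer called. With quantile normalisation of the libraries, 7 were called, and the Il27 and Ebi3 promoters were at -0.17 and -0.39, neither called. Without any PH797804 library 6 of all pairs were called, 5 of them for Pacritinib, a JAK2 inhibitor of the same run, among them the CRE 8.9 kb downstream of Ebi3 (-0.52). The part of contrast and depth in these differences was not tested.

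After IL-4 the same comparison with DMSO gave 1169 higher (51.7%) and 24 lower (1.06%) of 2262 pairs, against 36.2% and 3.03% over all CREs (39.2% called). By the same split, the 25 members with a DMSO mean under 50 counts were higher in 69.2% of pairs, the 9 between 50 and 200 in 26.8% and the 5 at 200 or more in 8.62%, and here too all 58 compounds had a lower contrast than DMSO (9.78 to 42.0 against 86.3). Against the other compounds of the run, 28 pairs were called, 22 of them higher in PH797804. In the LPS comparison the libraries of this compound stood apart in contrast. Shares over all CREs are not given here, for these 28 pairs or for PH797804 alone. The other 6 were the Il27 promoter and the CRE 15.2 kb downstream of Il12b lower in BGT226, the CRE 12.0 kb upstream of Il27 lower in AMG208, the CRE 20.2 kb downstream of Il27 lower in Vatalanib, the CRE 17.5 kb downstream of Il12a lower in Pimasertib, and the CRE 23.1 kb downstream of Il6 higher in X396. None of these calls was for a JAK inhibitor, the class that blocks the kinases the IL-4 receptor signals through.

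The CRE 19.3 kb upstream of Il6, the one that IL-4 raised in both sets of libraries, was lower than in DMSO in 11 of the 58 compounds and higher in 0 after IL-4 (limma, log2 differences from -0.83 to 0.51). Untreated and IL-4 libraries were averaged in this comparison, and whether JAK inhibitors were among the 11 is not given here. In DMSO cells the mean of this CRE went from 26.0 counts untreated to 125.0 at 30 min of IL-4. Its log2 rise at 4 h was 2.10 in DMSO cells and 1.36 in the fit over the 58 compounds. With Tofacitinib it held 25 counts in the untreated library and 55, 96, 57 and 34 at 30 min, 1 h, 2 h and 4 h of IL-4. With Ruxolitinib it held 29 counts in both untreated libraries and 92, 39, 57 and 47 with IL-4. With Pacritinib it held 15 counts untreated and 78, 66, 45 and 74 with IL-4. For each of the 6 JAK inhibitors every IL-4 library lay above that compound's own untreated libraries, as a description without a test. The size of these rises was not tested against the rise in DMSO cells.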

How the data were processed

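H3K27ac ChIP-seq was done on BMDMs in 96-well format. The authors mapped the reads to mm10 (the build named in the submitters' processing notes), counted them over CREs and scaled the libraries on invariant CREs. The deposited values are these normalised read counts rounded to whole numbers, and entered as a score, without a count model. The table gives no depth, which was estimated from the smallest steps between values. CREs were annotated with RefSeq on GRCm38.p6. Members, gene lists, named CREs and tests were chosen with earlier results of these data known. Named with values are the promoter CRE of each gene, the CRE with its largest called LPS difference and each CRE called after IL-4; for these, the 3 lowest and 3 highest CKIs were considered, and the CKIs against p38, MEK, ERK, IKK2, JNK and JAK are given as counts. Values in some CREs that neither rule names are given to account for every member.

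Values were taken as log2(value + 5), CREs with a mean under 10 over the libraries of a comparison were left out, and limma (3.58.1, R 4.3.3) with a mean-variance trend was fitted over all CREs, with time, or time and compound, as factors. Adjusted p-values are Benjamini-Hochberg values over all CREs tested, within each compound for the CKIs. Time courses were called at an adjusted p under 0.01 and a log2 difference over 1, CKIs and steps at 0.05 and 0.5. The LPS time course and the compound effect after LPS, against DMSO and against the run, were tested on simulated data, and the other fits were not. Alternatives were other pseudocounts, no filter, quantile normalisation, other windows of 10 and 50 kb, each replicate left out, a replicate block and other reference libraries; leaving out the PH797804 libraries was added after seeing the data. Tables were handled with pandas 2.3.3. Some results of the gene list for signalling downstream of the receptors are not reported here.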

Additional observations from a re-analysis of the deposited data

Results flagged for a closer look

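At 4 CREs the effect of LPS differed from that of IL-4 by the direct limma contrast at the same time, where both had been called against untreated cells. LPS minus IL-4 was 3.91 on the log2 scale at the Il6 promoter at 2 h. It was 4.58 at 1 h at the CRE 21.9 kb upstream of Il12b and 4.46 at 1 h at the CRE 18.3 kb upstream. LPS raised H3K27ac at both CREs, and the IL-4 calls there were downwards, with the largest difference at 4 h. At 1 h of IL-4 neither CRE met the size and adjusted p of a call. Both IL-4 calls rested on low counts and were lost when either untreated library was left out. Neither CRE was called after IL-4 in the CKI libraries. LPS minus IL-4 was -2.03 at 30 min at the CRE 24.8 kb upstream of Il12a, where IL-4 had raised H3K27ac at 30 min and LPS had not. No group of the DMSO libraries had more than 2 samples, so single libraries were not examined as outliers.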

How the results depend on the processing

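Leaving out 1 DMSO library at a time gave 27 to 30 members called after LPS, 4 to 8 after IL-4 (4 without untreated replicate 1), 27 to 29 for LPS against IL-4 and 58 to 68 steps. The window sets how many CREs are counted. With the window at 10 kb, LPS called 13 of 17 members, IL-4 1 and their difference 13. At 50 kb LPS called 46 of 63 members and the difference 43. Over all CREs tested, LPS called 53.5%, IL-4 24.7% and their difference 58.4%. A pseudocount of 20 left 4 members called after IL-4, and a pseudocount of 1 gave 2 in the CKI libraries. Pairs called against DMSO after LPS numbered 575, but 43 with quantile normalisation, 377 without replicate 2 of DMSO and 35 against the mean of all CKIs; after IL-4 they numbered 1193, but 169, 96 against all CKIs and 28 against the run. Pairs called against the run after LPS numbered 19, but 12 with quantile normalisation, 29 with stimulated libraries only and 6 without PH797804. Of 1419 alternatives for single CREs 1359 kept their call and direction, 53 lost the call, 4 gained one and 3 changed direction. The last were all PH797804 against its run: the CRE 2.3 kb downstream of the Il12a start, not called, went to -0.16 with a pseudocount of 1 and -0.0090 with stimulated libraries only, and the CRE 17.5 kb downstream went to 0.36 without the 30 min LPS library. Lost calls were mostly low CREs at Il12b and Il12a and CKI differences; the rise of the Il6 promoter after IL-4 was lost with a pseudocount of 20 (0.97). Beyond the windows, the cause was not tested. Replicate numbers did not pair the libraries (36 pairs of groups, r from -0.0873 to 0.0664), and a replicate block called 29 members after LPS, 7 after IL-4, 27 for their difference and 67 steps.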
